A study of Mus musculus with 2 samples.

Results

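The 9 genes described here encode secreted factors through which fibro-adipogenic progenitors (FAPs) can act on neighbouring muscle, vessel and nerve cells. They are Hgf, Fgf2, Fgf7, Fgf10, Vegfa, Vegfc, Angpt1, Nrg1 and Gdf10. Their rows were taken from the deposited tables by gene name, with no filter on values, and filled 10 of 44291 gene rows. The list itself was chosen with earlier results of these data known. The second Nrg1 row was listed at 0 in both libraries.

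FAPs are mesenchymal cells of skeletal muscle that give rise to adipocytes and fibroblasts and that support regeneration by secreting growth factors. HGF wakes quiescent muscle stem cells through the receptor MET, FGFs drive progenitor growth through FGF receptors, VEGFs and ANGPT1 act on blood and lymph vessels, and NRG1 and GDF10 serve nerve, muscle and mesenchymal tissue. Most of these proteins bind heparan sulfate or matrix, so that their messenger level in the producing cell says what can be made and not how much reaches the receptor.

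Bulk RNA-seq was deposited for 2 cultures of primary mouse FAPs, both of wild-type genotype (WT) and both under adipogenic differentiation. One library was labelled PRP, for platelet-rich plasma, and the other was labelled control, for vehicle. Both cultures shared the induction medium, which held IBMX, dexamethasone and insulin in DMEM with fetal bovine serum, so no culture without induction stood beside them. The labels give the treatment as PRP, whereas the study's text has FAPs given exosomes from PRP of young human donors before sequencing. The FAPs were sorted from digested hind-limb muscle of young adult C57BL/6 mice, and the sources used here do not say how many mice stood behind either culture. With 1 library per group no statistical test was possible, and the intervals below cover counting error only, without the spread between cultures.

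The deposited unit was FPKM, fragments counted per length of exon and per size of the library. Depth worked out from the steps between low values was 40120843 reads for PRP and 34139741 for control. A filter kept the 13401 genes whose FPKM averaged 1 or more over the libraries, called filtered genes below. Across them, log2(FPKM + 1) of the libraries correlated at r = 0.972, where genes are not independent replicates. Differences of PRP minus control on that scale lay between -0.74 and 0.89 for 95% of these genes, with a median of 0.01.

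The study's text names human let-7f-5p and miR-16-5p as abundant cargo of the exosomes. The mature sequences of their mouse counterparts and the matching sites in the 9 factors are therefore shown first. The mature mouse sequences come from RefSeq, 5′ to 3′, with the seed at bases 2 to 8 in capitals, and the pair do not share a seed.
mmu-let-7f-5p: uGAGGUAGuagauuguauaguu
mmu-miR-16-5p: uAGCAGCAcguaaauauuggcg

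Sites complementary to these seeds, CTACCTC for let-7f-5p and TGCTGCT for miR-16-5p, were searched in the longest GENCODE M21 3′UTR among the coding transcripts of each gene. Of the 9 factors, 4 held a site. The windows below are in the GRCm38 build (mm10), read 5′ to 3′ on the gene's strand, with the seed match in capitals.
Hgf miR-16-5p site 1, chr5:16619301-16619323, + strand: tcactctaTGCTGCTttccaggt
Hgf miR-16-5p site 2, chr5:16620017-16620039, + strand: ttaaaactTGCTGCTgcaattgg
Fgf2 miR-16-5p site, chr3:37409907-37409929, + strand: tttacggaTGCTGCTatgagtaa
Vegfa miR-16-5p site, chr17:46018583-46018605, - strand: cttatatcTGCTGCTaaatcgcc
Gdf10 let-7f-5p site, chr14:33936037-33936059, + strand: atgaaatgCTACCTCccaattcc

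The Fgf2 and Vegfa matches were followed by an A, and those of Hgf and Gdf10 were not. The 3′UTRs of Fgf7, Fgf10, Vegfc, Angpt1 and Nrg1 held neither set of letters. Among 10292 filtered genes that have a 3′UTR, 24.6% held the miR-16-5p letters and 9.86% the let-7f-5p letters, so such matches are common. Of the 3 factors with a miR-16-5p match, Hgf and Fgf2 were lower in PRP and Vegfa was within counting error, as described below. Of the factors with neither match, Fgf7, Fgf10 and Angpt1 were also lower, and Vegfc and Nrg1 were not. Whether a match bears on a level was not tested.

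The 9 factors spanned a wide range of levels, and the order was led by the same 4 genes in both libraries. In the control library the order by FPKM, which is per length and so comparable between genes, was Vegfa, Fgf7, Fgf2, Fgf10, Hgf, Angpt1, Vegfc, Nrg1 and Gdf10. The counting intervals of neighbours lay apart down to Angpt1, whose interval overlapped that of Vegfc. In the PRP library Vegfc and Nrg1 stood above Hgf and Angpt1, and the intervals of the last pair overlapped. No interval of level was computed for Nrg1, whose reads did not come out whole with the M21 length.

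**Figure D1:**
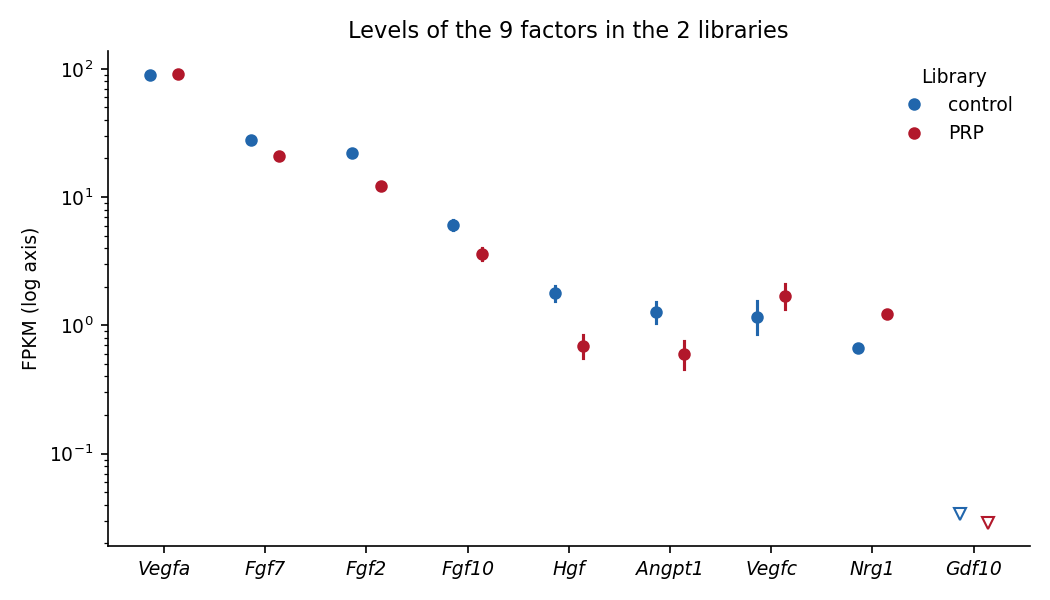
FPKM on a log axis of each of the 9 factors in the control library (blue) and the PRP library (red); vertical lines are 95% Poisson intervals from the reads, absent for Nrg1, and the open triangles for Gdf10 mark the level that 3 fragments would give. Vegfa stood at 90.4 and 89.6 FPKM, the FGF and HGF points were lower in PRP, and Gdf10 had no read.

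Hgf, the ligand of MET that activates muscle stem cells (ENSMUSG00000028864, chr5:16553495-16620152, + strand), was measured at 0.687 FPKM in PRP and 1.78 in control. These levels rested on 198 and 437 reads, and exons of Gm43489 on the same strand overlap 6.74% of its exon length. The PRP to control ratio was 0.386 (95% interval 0.301 to 0.491), the lowest among the factors with reads, and the log2 difference with the pseudocount of 1 was -0.72. Of the 13401 genes, 2.68% were as low or lower on that scale. In bulk RNA a lower value cannot tell fewer cells that make a transcript from less RNA in each cell, here and for each gene below.

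Fgf2, basic FGF, a mitogen of fibroblasts, muscle progenitors and endothelial cells (ENSMUSG00000037225, chr3:37348346-37410108, + strand), was at 12.3 FPKM in PRP and 22.0 in control, from 3349 and 5095 reads. Its ratio was 0.559 (0.526 to 0.595) and its log2 difference -0.79, the lowest on that scale among the factors, with 2.15% of genes as low or lower. Exons of Nudt6 on the opposite strand overlap 9.44% of its exon length, and those of Gm43439 on its own strand 3.76%. The libraries were made with a strand-preserving kit, but the sources used here do not state whether counting used the strand.

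Fgf10, a mesenchymal ligand of FGFR2b that supports preadipocytes and epithelium (ENSMUSG00000021732, chr13:118669791-118792115, + strand), was at 3.60 FPKM in PRP and 6.04 in control, from 665 and 948 reads. The ratio was 0.597 (0.517 to 0.688) and the log2 difference -0.61, with 4.04% of genes as low or lower, and Gm16263 on the opposite strand overlaps 2.67% of its exon length. Fgf7, keratinocyte growth factor, which signals through the same receptor isoform (ENSMUSG00000027208, chr2:126034658-126091185, + strand), was at 20.9 FPKM in PRP and 27.8 in control, from 2720 and 3088 reads. Its ratio of 0.750 (0.696 to 0.807) lay nearer to 1, the log2 difference was -0.40, and 10.0% of genes were as low or lower. The 3 FGF ligands were therefore all lower in the PRP library, each beyond its counting error, and Fgf7 by the least.

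Vegfa, the main inducer of blood vessel growth (ENSMUSG00000023951, chr17:46016993-46032369, - strand), was the most abundant of the 9 factors. It was at 90.4 FPKM in PRP and 89.6 in control, from 15535 and 13110 reads. The ratio was 1.01 with an interval of 0.976 to 1.04, which includes 1 and bounds any difference between these libraries to a few percent in counting terms. Vegfc, the lymphatic growth factor (ENSMUSG00000031520, chr8:54077606-54187096, + strand), was at 1.68 FPKM in PRP and 1.16 in control, from 165 and 97 reads. Its ratio was 1.45 (1.003 to 2.11) and its log2 difference 0.31. When both libraries were brought to a common FPKM sum the Vegfc interval was 0.992 to 2.09 and included 1, so its higher level was not clear of counting error.

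Angpt1, the stabilising ligand of the endothelial receptor TIE2 (ENSMUSG00000022309, chr15:42424723-42676977, - strand), was at 0.594 FPKM in PRP and 1.26 in control, from 124 and 224 reads. The ratio was 0.471 (0.340 to 0.648). Gm17473 on the opposite strand overlaps 14.2% of its exon length. Nrg1, the ligand of ERBB3 and ERBB4 made by nerve and mesenchymal cells (ENSMUSG00000062991, chr8:31814551-32884029, - strand), was at 1.22 FPKM in PRP and 0.664 in control. The smallest whole reads that its FPKM ratio allows are 379 and 175, and with these the ratio was 1.84 (1.42 to 2.40), an interval that more reads would narrow. Angpt1 and Nrg1 both averaged under 1 FPKM and therefore did not enter the counts over 13401 genes.

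Gdf10, also known as BMP3B and made by resting mesenchymal cells of muscle and fat (ENSMUSG00000021943, chr14:33923587-33937983, + strand), had 0 reads in both libraries. At this depth that allows up to 3 fragments, or 0.0287 FPKM in PRP and 0.0337 in control, and no ratio is given.

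**Figure D2:**
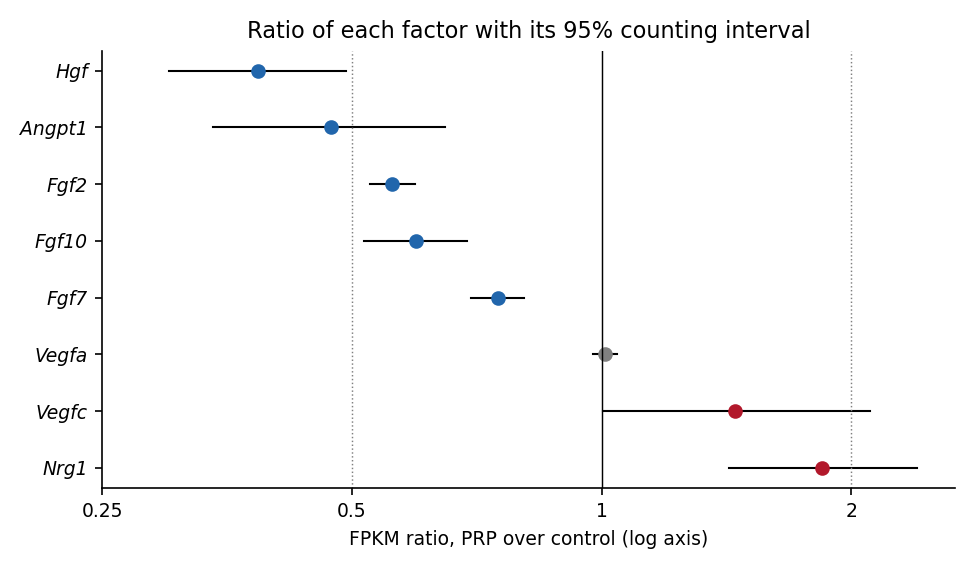
FPKM ratio of PRP over control on a log axis for the 8 factors with reads, with 95% counting intervals as horizontal lines and dotted lines at 0.5 and 2; blue, interval below 1; red, interval above 1; grey, interval including 1. Hgf, Angpt1, Fgf2, Fgf10 and Fgf7 lay below 1, Vegfa on 1, and Vegfc and Nrg1 above 1, with the lower bound of Vegfc at 1.003.

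Counted together, 6 of the 9 factors passed the filter, 4 being lower and 2 higher in PRP (Vegfa by 0.01, with the sign turned under rescaling), and Hgf passed through its control level alone. Their median log2 difference was -0.51, against 0.01 over all 13401 genes. None was at least 2-fold lower on the log2(FPKM + 1) scale, which 0.828% of genes were, and none at least 2-fold higher, which 2.00% were. At 1.5-fold, 3 of 6 were lower (Hgf, Fgf2 and Fgf10) against 4.57% of genes, and 0 were higher against 6.15%. The counting interval lay below 1 for 4 of 6, against 26.1% of the 12369 genes with whole reads, and above 1 for 1 of 6, against 26.1%. These counts describe 6 genes in 1 pair of libraries, from a list chosen with earlier results of these data known. The shares of 26.1% below 1 and 26.1% above 1 are also the background for the interval counts of the lists further on. These shares were not matched for level, and an interval narrows as reads rise.

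For the low factors the background was taken from 5084 genes whose mean lay between 0.5 and 2 FPKM. A plain FPKM ratio of at most 0.5 was found in 6.73% of them and of at least 1.5 in 20.4%. Ratios as low as that of Hgf occurred in 3.21% and as low as that of Angpt1 in 5.94%. Ratios as high as that of Nrg1 occurred in 12.4% and as high as that of Vegfc in 22.5%, so ratios like these last were common among genes of low level.

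**Figure D3:**
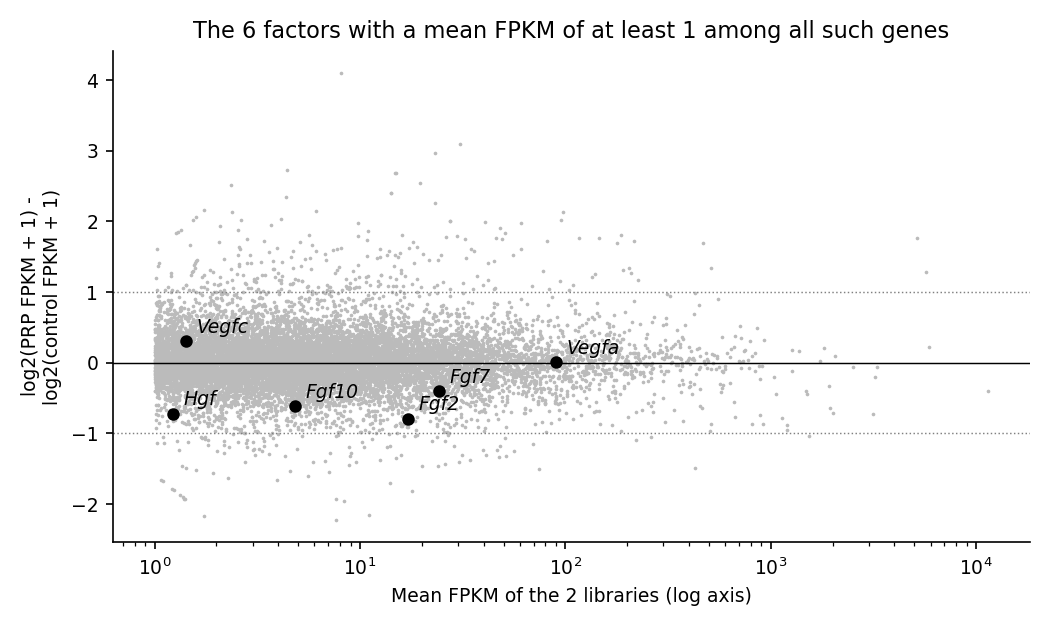
Mean FPKM of the 2 libraries (log axis) against the difference in log2(FPKM + 1), PRP minus control, for the 13401 filtered genes (grey) and the 6 factors among them (black); dotted lines mark 2-fold. Fgf2 at -0.79, Hgf at -0.72 and Fgf10 at -0.61 lay low in the cloud but inside the 2-fold line, and Vegfa lay at 0.01. Of the filtered genes, 2.15%, 2.68% and 4.04% were as low as Fgf2, Hgf and Fgf10 or lower.

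Promoters were compared because Hgf, Fgf2, Fgf10 and Fgf7 were lower together while Vegfa was not. RefSeq held promoter windows for 7 of the 9 factors (GRCm38.p6, 250 bases before to 50 after a start, 9 windows). The windows below are 5′ to 3′ on the gene's strand, and capitals mark the GC box GGGCGG on either strand, the letters bound by SP1.
Hgf, chr5:16553245-16553544, + strand: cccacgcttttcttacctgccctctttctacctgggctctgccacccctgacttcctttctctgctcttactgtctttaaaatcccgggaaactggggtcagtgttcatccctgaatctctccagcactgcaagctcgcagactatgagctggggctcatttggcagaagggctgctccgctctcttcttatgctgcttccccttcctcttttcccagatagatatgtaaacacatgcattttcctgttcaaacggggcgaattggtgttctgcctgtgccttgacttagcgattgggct
Fgf2, chr3:37348403-37348702, + strand: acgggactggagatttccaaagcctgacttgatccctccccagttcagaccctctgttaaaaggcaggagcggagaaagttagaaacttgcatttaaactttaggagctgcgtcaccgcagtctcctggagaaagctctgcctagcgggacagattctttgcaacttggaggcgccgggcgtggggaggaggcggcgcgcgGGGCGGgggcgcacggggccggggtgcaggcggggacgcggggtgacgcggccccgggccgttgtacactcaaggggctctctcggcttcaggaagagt
Fgf7, chr2:126034408-126034707, + strand: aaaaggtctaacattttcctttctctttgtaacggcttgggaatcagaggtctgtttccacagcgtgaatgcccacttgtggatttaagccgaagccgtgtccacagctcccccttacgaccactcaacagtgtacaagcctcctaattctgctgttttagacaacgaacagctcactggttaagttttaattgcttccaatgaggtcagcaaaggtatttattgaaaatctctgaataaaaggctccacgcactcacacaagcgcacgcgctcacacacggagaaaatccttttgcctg
Fgf10, chr13:118714449-118714748, + strand: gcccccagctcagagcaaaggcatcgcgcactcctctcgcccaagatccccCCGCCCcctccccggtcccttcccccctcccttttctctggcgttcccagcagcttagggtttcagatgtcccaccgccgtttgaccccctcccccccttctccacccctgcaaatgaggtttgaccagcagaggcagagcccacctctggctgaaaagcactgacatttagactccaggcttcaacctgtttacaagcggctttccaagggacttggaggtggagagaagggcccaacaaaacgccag
Vegfa, chr17:46032328-46032627, - strand: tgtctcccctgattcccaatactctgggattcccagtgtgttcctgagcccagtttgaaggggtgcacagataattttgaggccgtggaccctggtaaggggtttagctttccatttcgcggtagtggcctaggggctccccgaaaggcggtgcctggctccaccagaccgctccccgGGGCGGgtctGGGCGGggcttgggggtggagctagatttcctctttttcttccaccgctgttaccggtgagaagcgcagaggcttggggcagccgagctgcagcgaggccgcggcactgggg

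The GC content of these windows was 51.3% for Hgf, 62.7% for Fgf2, 45.7% for Fgf7, 60.7% for Fgf10 and 62.0% for Vegfa, with 7, 24, 11, 10 and 16 CpG. A GC box stood once in Fgf2, once in Fgf10 and 2 times in Vegfa, and in 35.7% of 32851 promoters. Hgf and Fgf7 held none in these windows. The CRE TGACGTCA (1.79% of promoters), the AP-1 site TGANTCA (7.81%) and the TATA box TATAAA (13.6%) were in none of the 9 windows on either strand. The core of the hypoxia element, ACGTG (19.6%), stood in 1 window, an internal Vegfa start at chr17:46025114-46025413, and the motifs did not overlap one another there. A match is a description of letters and no match is no statement about a factor.

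The signalling partners of HGF were measured next. Its receptor Met was higher in PRP, at 2.20 FPKM against 1.32 (ratio 1.66, 1.38 to 2.01). Of the 8 genes listed as receptor, activators and inhibitors, 3 passed the filter with a median log2 difference of -0.03, and 1 of these, Met, had an interval above 1 and 0 below. Plat, the tissue plasminogen activator, a protease that can activate pro-HGF, was at 7.01 and 7.66 FPKM (0.916, 0.831 to 1.01), within counting error. Thus the ligand Hgf was lower while its receptor was higher in the PRP library.

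Among the receptors of the FGF ligands, Fgfr1 was at 20.7 FPKM in PRP and 18.1 in control (1.14, 1.09 to 1.20). Fgfr2, whose IIIb isoform receives FGF7 and FGF10, was at 2.13 and 2.12 FPKM (1.005, 0.873 to 1.16), within counting error. Of 14 listed receptors, co-receptors and binding proteins, 9 passed the filter, 3 with an interval above 1 and 4 below. The extremes were Fgfbp3, a carrier that frees FGFs from matrix, at 5.70 against 3.22 FPKM (1.77, 1.38 to 2.27), and Fgfrl1, a receptor without a kinase domain, at 4.84 against 8.63 (0.560, 0.479 to 0.655). Of 14 other FGF ligands in the files, 13 were under 1 FPKM in both libraries, and Fgf18 was at 1.30 and 0.888 FPKM with an interval of 0.795 to 2.78. Fgf2, Fgf7 and Fgf10 thus had the highest levels of the FGF ligands listed.

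The ratios of the other VEGF ligands ran from 0.380 to 3.39. Vegfd, the closest relative of Vegfc, was at 8.71 FPKM in PRP and 22.9 in control (0.380, 0.338 to 0.427), at least 2-fold lower. Pgf, placental growth factor, was at 3.14 and 0.928 FPKM (3.39, 2.44 to 4.79), at least 2-fold higher, and passed the filter through its PRP level alone. The third ligand that passed, Vegfb, had an interval below 1. Of the receptors, Kdr, the main signalling receptor of VEGFA, was at 4.23 FPKM in PRP and 1.499 in control (2.82, 2.43 to 3.28). Flt1, which binds VEGFA and placental growth factor, was at 1.25 and 1.83 FPKM (0.685, 0.592 to 0.792). The co-receptors Nrp1 (0.792, 0.733 to 0.855) and Nrp2 (0.664, 0.644 to 0.684) were also lower, Nrp2 from 48.3 FPKM in control to 32.1 in PRP. Flt4, the VEGFC receptor, was under the filter at 0.385 and 0.228 FPKM (1.69, 1.09 to 2.67).

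Tek, the TIE2 receptor of ANGPT1, was at 4.73 FPKM in PRP and 3.56 in control (1.33, 1.14 to 1.55). Among 6 related genes that passed the filter, 3 had an interval above 1 and 1 below. Angpt4, another TIE2 ligand, was the highest of these differences at 34.6 against 25.5 FPKM (1.36, 1.25 to 1.47), and stood far above Angpt1 in both libraries. Angptl1, a related secreted protein, was the lowest at 1.17 against 1.75 FPKM (0.666, 0.476 to 0.929).

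Erbb2, the partner receptor for NRG1 signals, was at 2.10 FPKM in PRP and 2.27 in control (0.929, 0.764 to 1.13), within counting error. The NRG1-binding receptors were close to the floor, Erbb3 with 16 and 2 reads and Erbb4 with 6 and 6. Of the NRG1 proteases, Adam19 was higher at 35.2 against 25.8 FPKM (1.37, 1.31 to 1.43), and Bace1 was lower at 5.30 against 7.57 (0.7005, 0.632 to 0.777), with 32.5% of the Bace1 exon length under opposite-strand genes. Adam17, named after its values were seen, was also lower at 16.4 against 19.4 FPKM (0.844, 0.797 to 0.894). Of the 9 genes in this list, 4 passed the filter, 1 with an interval above 1 and 2 below.

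Although Gdf10 had no read, genes for receptors of its family were present, and all 6 that passed the filter were lower in PRP with an interval below 1. Among the 12369 filtered genes with whole reads, 26.1% had an interval below 1. The 6 receptor genes ran from Bmpr2, a type II receptor, at 2.87 against 3.18 FPKM (0.901, 0.825 to 0.984) to Acvr2a, an activin type II receptor, at 2.38 against 5.43 (0.437, 0.376 to 0.507). Tgfbr3, the co-receptor betaglycan, named after its values were seen, was at 7.64 against 15.4 FPKM (0.494, 0.457 to 0.535).

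**Figure D4:**
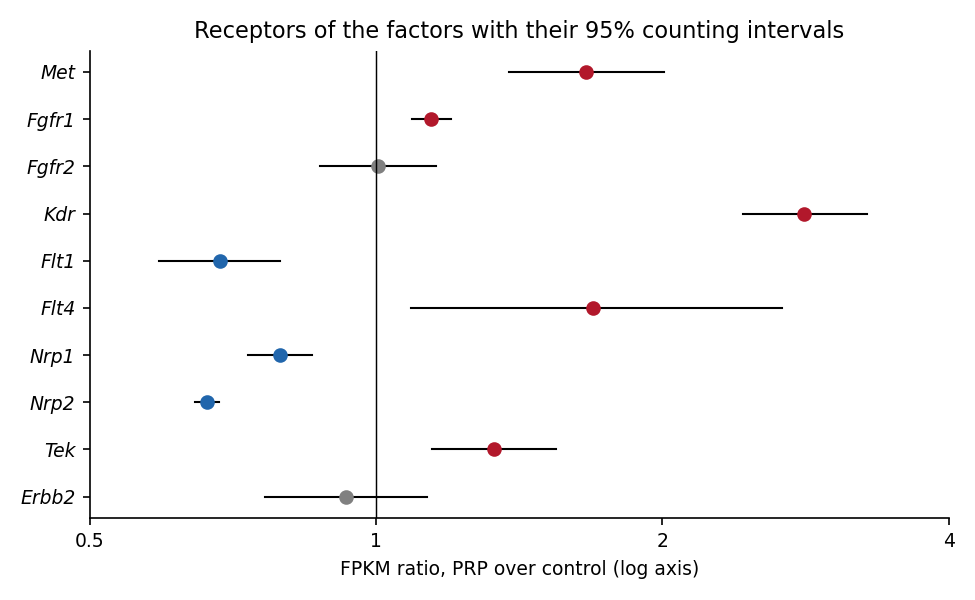
FPKM ratio of PRP over control on a log axis for 10 receptors and co-receptors of the factors, with 95% counting intervals as horizontal lines; red, interval above 1; blue, below 1; grey, including 1. Kdr at 2.82 and Met at 1.66 stood above 1, Nrp2 at 0.664 and Flt1 at 0.685 below, and Fgfr2 and Erbb2 included 1.

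Other secreted factors were grouped by the cells they act on. Of 13 neurotrophic genes, 5 passed the filter with a median log2 difference of 0.78, and 4 of these had an interval above 1. The median was 0.12 without the filter. With the filter at a mean of 5 FPKM only Sema3c remained, and the median of 1.61 was its value alone. The largest of the 4 was Sema3c, an axon and vessel guidance factor, at 12.2 FPKM in PRP and 3.32 in control (3.67, 3.29 to 4.10). The other 3, named after their values were seen, were Gdnf (1.61 against 0.518 FPKM), Lif (3.94 against 1.47) and Bdnf (4.88 against 2.70), which support motor, sensory or other nerve cells. Gdnf passed the filter through its PRP level alone. Ptn, pleiotrophin, also named after its values were seen, was under the filter at 0.319 and 0.648 FPKM, with an interval below 1 (0.493, 0.278 to 0.854). Mdk, midkine, was at 0.828 and 1.33 FPKM with an interval that included 1 (0.343 to 1.12). Apart from Mdk, the filtered neurotrophic genes thus lay on the other side of 0 from Hgf and the FGF ligands.

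Of 11 other muscle-supporting factors in the files, 9 passed the filter with a median of -0.37, 7 with an interval below 1 and 1 above. Igf1, the growth factor of muscle fibres, was at 2.54 FPKM in PRP and 5.17 in control (0.491, 0.439 to 0.548), and Il6, the cytokine, was at 3.83 and 2.09 FPKM (1.83, 1.41 to 2.40). Of 12 other angiogenic and anti-angiogenic factors, 11 passed with a median of -0.37, 7 with an interval below 1 and 1 above. Beside both of these lists, 26.1% of all filtered genes with whole reads had an interval below 1 and 26.1% above. Cxcl12, which draws endothelial and stem cells, was at 18.2 and 33.7 FPKM (0.539, 0.514 to 0.564). Timp3, which blocks VEGFA from KDR, was at 18.9 and 17.2 FPKM (1.10, 1.04 to 1.16), with an opposite-strand gene over 21.3% of its exon length.

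Vegfa is a target of the hypoxia-inducible factor, so 13 other targets were read beside it. They split, 4 with an interval above 1, 7 below and 2 including 1, with a median of -0.14. Ndrg1 was the highest at 4.11 against 3.02 FPKM (1.36, 1.19 to 1.56), and Adm, the vessel-dilating peptide adrenomedullin, the lowest at 73.7 against 105.7 (0.697, 0.660 to 0.736).

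**Figure D5:**
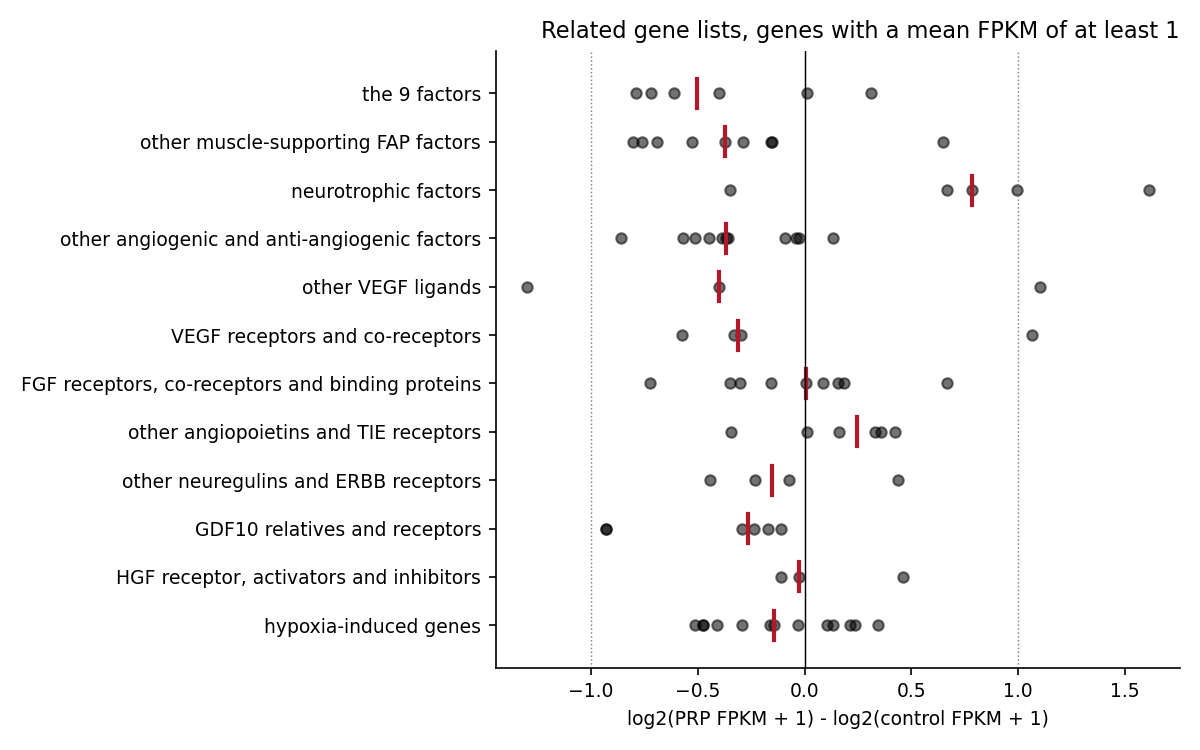
Difference in log2(FPKM + 1), PRP minus control, of each filtered gene (points) in the 9 factors and 11 related lists, with the list median as a red bar and dotted lines at 2-fold. The median was -0.51 for the 6 factors shown and 0.78 for the neurotrophic genes.

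Markers of FAPs and of other cell types were read in the same libraries. The FAP markers Pdgfra (19.8 and 28.0 FPKM) and Ly6a (59.9 and 66.4) were present in both libraries, whereas Lum was near 0 with 8 and 6 reads. The 7 of 8 FAP markers that passed the filter were each lower in PRP with an interval below 1. Col1a1 was lower by the most (0.542, 0.531 to 0.553) and Vim by the least (0.973, 0.961 to 0.985). The FAP markers summed to 873 FPKM in PRP and 1026 in control. Over all filtered genes with whole reads, 26.1% had an interval below 1. Beside Kdr and Tek stand the other endothelial markers, of which 8 of 10 were under 1 FPKM in both libraries, with Cldn5 at 0 and Cdh5 at 0.0949 and 0.0976. Of these low markers, and named after their values were seen, Pecam1 had 47 reads in PRP and 10 in control (3.999, 1.49 to 13.4), and Vwf had 93 and 46 (1.72, 1.02 to 2.97), both with an interval above 1 like Kdr and Tek. Egfl7 was lower, with 50 and 66 reads and an interval that included 1 (0.645, 0.368 to 1.12). Tie1 (0 and 4 reads) and Robo4 (1 and 2) were lower and Emcn (44 and 32) higher, each with an interval including 1. The endothelial sum was 9.94 and 6.04 FPKM, most of it Kdr and Tek themselves.

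Macrophage markers summed to 11.2 FPKM in PRP and 11.1 in control, with 6 of 8 under 1 in both and Ptprc at 8 and 12 reads. The 2 that passed the filter lay on opposite sides of 1, Cd68 at 1.98 (1.41 to 2.82) and Lyz2 at 0.648 (0.512 to 0.820). Schwann cell markers, of interest for the neurotrophic and NRG1 genes, summed to 1.56 and 3.23 FPKM, with 5 of 6 under 1 and Sox10 at 4 and 4 reads. Myogenic markers summed to 39.5 and 23.4 FPKM, with Pax7 and Myog at 0 in both and Tnnc1, a troponin, at 21.2 and 8.75. Acta1 was also higher at 15.1 and 11.1 FPKM (1.36, 1.17 to 1.57), and Des was within counting error (0.859, 0.709 to 1.04). Under the filter, Myh3 had 68 and 26 reads with an interval above 1, and Myod1 had 0 and 2. Adipocyte markers summed to 138 and 143 FPKM, 2 with an interval above 1 and 1 below. Those above were Fabp4 (40.7 and 33.6 FPKM) and Pparg (8.69 and 6.55), and the one below was Lpl (67.4 and 83.3). Platelet markers, read as mouse genes, summed to 1.55 and 1.40 FPKM and none passed the filter, with Ppbp and Gp9 at 0. The study's PRP came from human donors, so these mouse genes were no measure of donor platelet RNA. The part of these markers in the differences of the factors was not tested.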

How the data were processed

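RNA-seq of primary mouse FAPs was used, 1 PRP and 1 control library. Per the submitters' processing notes and the study's methods, the authors trimmed reads with fastp 0.23.4, aligned them to mm10 with STAR 2.5.3a and counted them with featureCounts, and deposited FPKM per gene. Whole reads were worked back from the FPKM with the summed exon lengths of GENCODE M21 (GRCm38), within 0.001 reads, for 93.8% of genes above 0. Differences were taken on log2(FPKM + 1), PRP minus control, where the mean of both libraries reached 1 FPKM; the pseudocount understates the change of low genes. Ratio intervals were exact Clopper-Pearson and level intervals exact Poisson, both 95%, with 2 reads as 1 fragment and a floor of 3 fragments. The steps were tested on simulated data with known reads and changes. No p-value was computed.

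The 9 factors and the 19 other lists were chosen with earlier results of these data known. The text names every factor, 12 direct receptors, the highest and lowest filtered difference of each related list, and a few genes of each marker list, picked with their values known. Other names are marked as chosen after their values were seen. Some listed genes are not reported here and were left out of the list counts. Promoters and miRNAs came from RefSeq (GRCm38.p6), and 3′UTRs from GENCODE M21. A planned comparison of protein sequences was not run, since no protein table was used here. Python 3.11.15, pandas 2.3.3, NumPy 2.4.6, SciPy 1.17.1 and matplotlib 3.10.9 were used.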

Additional observations from a re-analysis of the deposited data

How the results depend on the processing

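No paired analysis was possible because there was 1 PRP and 1 control library. No factor was at least 2-fold higher in PRP under any of the settings tried, and none at least 2-fold lower with a pseudocount of 5, without the filter, with the filter at a mean FPKM of 5 or after centring on the median gene. With the filter at a mean FPKM of 5, Hgf, Fgf10 and Vegfc left the count. With a pseudocount of 5, Hgf could not have been 2-fold lower at any PRP level, given 1.78 FPKM in control. At a 1.5-fold threshold 3 factors were lower. The count at least 2-fold lower was 1 with a pseudocount of 0.1, 1 after each library was rescaled to a common FPKM sum, and 2, Hgf and Angpt1, for the plain FPKM ratio with neither pseudocount nor filter, an alternative chosen after seeing the data. The rescaling also multiplies each value, which makes the pseudocount smaller against it. The log2 difference of Hgf ranged from -1.38 to -0.25 over the settings and that of Fgf2 from -0.84 to -0.64, while Vegfa ran from -0.004 to 0.012 and so changed sign under rescaling. Values that rest on few reads, such as those of Erbb3, Erbb4, Ptprc, Sox10 and Lum, are limited by depth, and the spread between cultures is unknown for every value.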
